A study of Homo sapiens with 4 samples.

Results

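Mucins are large O-glycosylated proteins that cover and lubricate epithelia. The genes described here are MUC5AC, MUC5B, MUC1, MUC13, MUC16 and MUC20, taken by name from the deposited expression table, so the set is 6 of the 43622 genes listed there. MUC5AC and MUC5B encode secreted mucins that form gels, whereas MUC1, MUC13, MUC16 and MUC20 encode mucins held in the plasma membrane. Gel-forming mucins are linked end to end through disulfide bonds, are packed into secretory granules and make up the bulk of mucus. Transmembrane mucins stay on the cell surface, where their cytoplasmic tails take part in signaling and their extracellular parts can be shed.

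RNA-seq was performed on PC3, an established human prostate adenocarcinoma cell line, treated for 3 days with the NEDDylation inhibitor MLN4924 or with its vehicle DMSO. NEDDylation is the attachment of the ubiquitin-like protein NEDD8 to proteins, among them the cullins of ubiquitin ligases. In the 4 conditions, the parental cells received DMSO (Ctrl) or 1 µM MLN4924 (MLN), and cells that carried a short hairpin RNA (shRNA) against p14ARF received DMSO (shARF) or 1 µM of the drug (Both), with 3 libraries for each. The tumor suppressor p14ARF was depleted stably with a retrovirus and hygromycin selection, and no control shRNA is named for the Ctrl and MLN cells, so the hairpin cannot be told apart from infection and selection. Libraries carry the numbers 1, 2 and 3 in Ctrl, 1, 2 and 5 in MLN, 1, 3 and 5 in shARF and 2, 3 and 4 in Both. Values are TPM (transcripts scaled to a common total), and the level is also scaled for transcript length, so levels of different mucins can be set side by side. The depth of the libraries is unknown from TPM. The labels do not say whether the 3 libraries of a condition came from separate cultures, so p-values measure the spread between these libraries, which may be technical.

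CDKN2A, the gene of p14ARF, was at 183 ± 6.49 TPM (SD, n = 3) in Ctrl and 59.3 ± 1.47 TPM in shARF. It was lower with the drug, at 118 ± 16.4 TPM in MLN and 47.5 ± 6.40 TPM in Both. The CDKN2A level is per gene and also covers the p16INK4a transcript, so it does not measure the p14ARF transcript alone. Epithelial markers (EPCAM, CDH1, KRT8, KRT18 and KRT19) were detected in every library, with summed levels from 433 to 1280 TPM. Of the luminal prostate markers, KLK3 was listed at 0 in the 12 libraries, while leukocyte markers summed to at most 1.07 TPM. Of the endothelial markers, VWF and CDH5 had group means of at most 0.0193 and 0.251 TPM, whereas the mean of PECAM1 was 11.7 TPM in Ctrl, 1.91 TPM in shARF, 0.579 TPM in MLN and 0.173 TPM in Both, the same order as MUC5AC. The mitochondrially encoded share of TPM overlapped between Ctrl and MLN, but lay between 6.04% and 8.03% in shARF and between 10.2% and 13.2% in Both, and its part in the comparison of these was not tested. Within each condition the correlation between libraries across genes was between 0.975 and 0.980, and no library stood apart.

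MUC5AC and MUC5B are neighbors on the plus strand of chromosome 11 in GRCh38 (GENCODE annotation), at chr11:1157953-1201138 and chr11:1223066-1262172, with 49 exons in each canonical transcript. MUC1 lies on the minus strand at chr1:155185824-155192916 and MUC13 on the minus strand at chr3:124905442-124953819. MUC16 lies on the minus strand at chr19:8848844-9010390 and MUC20 on the plus strand at chr3:195720884-195741123. The windows upstream of MUC1 and MUC13 are shown because these are the transmembrane mucins that were measurable and they differed in how they responded. In RefSeq (GRCh38.p14) the 250 bases before the annotated starts are chr1:155192916-155193165 for MUC1 and chr3:124934752-124935001 for MUC13, both on the minus strand. The MUC13 window lies within the span that GENCODE gives to the gene, as the annotations place its start differently. Capitals mark matches on either strand to the GC box, the TATA box, the AP-1 motif and the cAMP response element, each spelled out below, which were chosen with the sequences in view.
MUC1: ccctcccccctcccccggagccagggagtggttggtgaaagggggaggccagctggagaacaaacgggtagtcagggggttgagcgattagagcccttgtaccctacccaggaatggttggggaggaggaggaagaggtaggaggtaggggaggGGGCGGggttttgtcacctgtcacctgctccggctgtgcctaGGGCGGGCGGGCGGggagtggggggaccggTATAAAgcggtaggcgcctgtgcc
MUC13: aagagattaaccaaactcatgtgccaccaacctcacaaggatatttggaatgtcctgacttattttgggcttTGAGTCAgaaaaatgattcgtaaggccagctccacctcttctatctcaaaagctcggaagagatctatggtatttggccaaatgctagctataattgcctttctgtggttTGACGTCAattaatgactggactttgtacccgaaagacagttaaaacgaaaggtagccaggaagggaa
The MUC1 window was 66% GC and held 4 GC boxes (GGGCGG), 3 of which overlap each other. It also held 1 TATA box, spelled TATAAA, at 24 bases before the start. Among 35116 RefSeq windows of the same length, 42.6% held a GC box and 10.7% a TATA box, and the median GC content was 58%. The MUC13 window was 41.6% GC and held 1 match to the AP-1 motif TGANTCA, which is found in 6.57% of windows. It held 1 cAMP response element, whose letters TGACGTCA are found in 1.65% of windows. The MUC13 window held no match to the GC box or the TATA box, and the MUC1 window none to the AP-1 motif or the cAMP response element. Such matches describe the letters of the sequence, and no factor binding was measured.

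The gel-forming mucins and the transmembrane MUC13 moved in opposite directions. MLN4924 lowered MUC5AC and MUC5B and raised MUC13 with or without the shRNA. Without drug, MUC5AC and MUC5B were also lower and MUC13 higher in shARF than in Ctrl. MUC1 rose after MLN4924 in PC3 cells and was lower in shARF than in Ctrl. Of the 6 mucins, 4 passed the filter on low values (0.1 TPM or more on average over the 12 libraries) and were tested. In MLN vs Ctrl, 4 of these 4 had an adjusted p below 0.05 (limma on log2(TPM + 0.1), Benjamini-Hochberg adjustment over 19932 genes), where 61.6% of the genes tested did. In shARF vs Ctrl it was again 4 of 4, beside 41.4% of the genes tested. In Both vs shARF and in Both vs MLN it was 3 of 4, beside 61.0% and 32.4%. In Both vs Ctrl and in MLN vs shARF it was 4 of 4, beside 61.7% and 65.8%. With these shares, passing the test is not in itself particular to the mucins. With the added cutoff of a log2 fold change above 2 or below −2, MUC5AC, MUC5B and MUC13 passed in MLN vs Ctrl, where 9.43% of the genes tested passed. MUC5AC and MUC13 passed this cutoff in shARF vs Ctrl (3.19% of the genes tested), MUC5AC and MUC5B in Both vs shARF (9.19%), and MUC5AC in Both vs MLN (2.41%). The comparisons share libraries, and their fold changes are therefore not independent of each other.

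**Figure D1:**
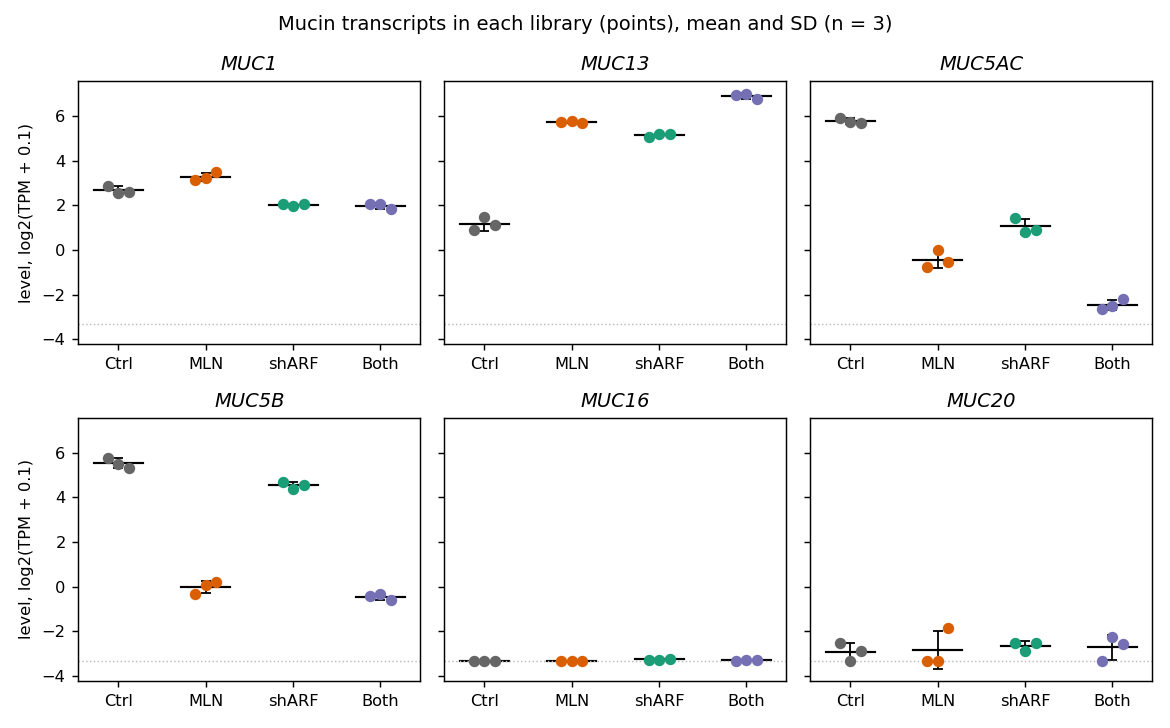
Level of each mucin on the log2(TPM + 0.1) scale (vertical axis) in every library of the 4 conditions, with the mean and SD of 3 libraries; the dotted line marks 0 TPM. MUC13 was lowest in Ctrl and highest in Both, MUC5AC was highest in Ctrl and lowest in Both, MUC5B was low in MLN and Both, and MUC16 and MUC20 stayed near the line.

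MUC5AC, the gel-forming mucin typical of airway goblet cells and the gastric surface, had levels of 60.1, 52.3 and 51.0 TPM in Ctrl. After MLN4924 it was at 0.499, 0.905 and 0.579 TPM in MLN. The drug thus took this transcript from the level of a well-expressed gene to below 1 TPM in each library, without overlap. The group means were 54.5 ± 4.90 TPM in Ctrl and 0.661 ± 0.215 TPM in MLN, a ratio of 82.4, and the log2 fold change was −6.20 (standard error, SE, 0.20, limma adjusted p = 7.07e-06). Among the 19932 genes tested, 6 had a lower log2 fold change in MLN vs Ctrl than MUC5AC. Because the RNA came from whole cultures, fewer expressing cells and less RNA per cell cannot be told apart, here and for the other mucins.

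Without drug, MUC5AC was also lower in the p14ARF-depleted cells, at 2.62, 1.67 and 1.78 TPM in the shARF libraries. The mean of 2.02 ± 0.515 TPM in shARF was 26.9-fold below that in Ctrl (log2 fold change −4.71, SE 0.18, adjusted p = 9.57e-05), and 51 genes had a lower log2 fold change in this comparison. In Both, MUC5AC was at 0.0601, 0.0783 and 0.117 TPM. The order of the MUC5AC levels was therefore Ctrl, shARF, MLN and Both from high to low, and no neighboring conditions overlapped. MLN was below shARF (log2 fold change −1.49, SE 0.28, adjusted p = 0.00352), and Both was below MLN (log2 fold change −2.01, SE 0.28, adjusted p = 0.0043). The levels in Both lie around the pseudocount of 0.1 TPM, so the size of the last step depends on it and was −0.61 with a pseudocount of 1 and −2.81 with 0.01, with adjusted p below 0.05 in each case.

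MUC5B, the other gel-forming mucin of the chromosome 11 cluster and a main component of airway and salivary mucus, was at 54.3, 44.2 and 40.0 TPM in Ctrl. In MLN its levels were 0.706, 0.938 and 1.05 TPM. The mean fell from 46.2 ± 7.33 to 0.899 ± 0.177 TPM, a ratio of 51.3 (log2 fold change −5.54, SE 0.18, adjusted p = 6.27e-06), with no overlap. After p14ARF depletion MUC5B stayed well expressed, at 25.9, 20.9 and 23 TPM in shARF. The ratio of the Ctrl to the shARF mean was 1.98 (log2 fold change −0.98, SE 0.14, adjusted p = 0.00434), where that of MUC5AC was 26.9. In PC3-shp14ARF cells MLN4924 brought MUC5B to 0.652, 0.694 and 0.558 TPM, a 36.7-fold fall of the mean (Both vs shARF log2 fold change −4.99, SE 0.12, adjusted p = 2.33e-06). Both and MLN were the neighbors that did not differ past the threshold for MUC5B. Their libraries did not overlap, but the log2 difference of −0.43 had a 95% interval from −0.94 to 0.073 and an adjusted p = 0.162.

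The ratio of MUC5AC to MUC5B, each per length, was 1.19 ± 0.0845 in Ctrl and 0.740 ± 0.210 in MLN. It was 0.0862 ± 0.0128 in shARF and 0.138 ± 0.0630 in Both. The libraries of shARF, at 0.0773 to 0.101, and of Both, at 0.0921 to 0.210, overlapped, and both lay below all Ctrl and MLN libraries. MUC5AC exceeded MUC5B in every Ctrl library, and MUC5B exceeded MUC5AC in every library of the other conditions.

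MUC13, a transmembrane mucin best known from the apical surface of gastrointestinal epithelium, had the lowest levels of the 4 tested mucins in Ctrl, at 1.74, 2.65 and 2.04 TPM. In MLN it was at 53.1, 55.3 and 51.0 TPM. In contrast to the gel-forming mucins the drug raised it 24.8-fold, from a mean of 2.14 ± 0.463 to 53.1 ± 2.18 TPM (log2 fold change 4.59, SE 0.15, adjusted p = 6.9e-06). In shARF it was at 33.6, 36.5 and 36.0 TPM, which was 16.5-fold above the Ctrl mean (log2 fold change 4.0, SE 0.16, adjusted p = 9.58e-05). In shARF vs Ctrl 17 of the 19932 genes tested had a higher log2 fold change than MUC13, and in MLN vs Ctrl 125 had. In Both MUC13 reached 123, 128 and 108 TPM, above every library of the other conditions. The order was Ctrl, shARF, MLN and Both from low to high, with no overlap at any step. MLN was above shARF (log2 fold change 0.59, SE 0.053, adjusted p = 0.00014), and Both was above MLN (log2 fold change 1.17, SE 0.076, adjusted p = 0.000532). The drug raised MUC13 in PC3-shp14ARF cells 3.38-fold on the means (Both vs shARF log2 fold change 1.75, SE 0.074, adjusted p = 1.21e-05).

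MUC1 is the transmembrane mucin of most simple epithelia, and its cytoplasmic tail takes part in growth factor signaling. It changed less than the other tested mucins in MLN vs Ctrl, shARF vs Ctrl and Both vs shARF. In Both vs MLN, however, its log2 fold change of −1.29 exceeded in size those of MUC13 (1.17) and MUC5B (−0.43). In MLN vs shARF it also exceeded that of MUC13 (1.26 against 0.59). MUC1 levels were 7.25, 5.77 and 5.96 TPM in Ctrl and 8.54, 9.24 and 11.1 TPM in MLN. The MLN libraries all lay above the Ctrl libraries (log2 fold change 0.60, SE 0.14, adjusted p = 0.00988). In shARF MUC1 was at 4.0, 3.82 and 4.0 TPM and in Both at 4.13, 4.02 and 3.47 TPM. The shARF libraries all lay below those of Ctrl (log2 fold change −0.66, SE 0.11, adjusted p = 0.00629). No rise after MLN4924 was detected for MUC1 in PC3-shp14ARF cells, where the libraries overlapped and the log2 difference of −0.029 had a 95% interval from −0.28 to 0.22 (adjusted p = 0.827). Under the drug, MUC1 was lower in the depleted cells (Both vs MLN log2 fold change −1.29, SE 0.13, adjusted p = 0.00163). The order from high to low was MLN, Ctrl, shARF and Both, and the last neighbors did not differ beyond their spread.

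MUC16, the large mucin known as CA125, was listed at 0 in every Ctrl and MLN library. It was at 0.00359, 0.00355 and 0.00724 TPM in shARF and at 0, 0.00347 and 0.00333 TPM in Both. MUC20, a mucin of kidney and colon epithelium, was at 0.0735, 0 and 0.0358 TPM in Ctrl and at 0, 0 and 0.177 TPM in MLN. In shARF MUC20 was at 0.0741, 0.0366 and 0.0747 TPM and in Both at 0, 0.107 and 0.0687 TPM, so its conditions overlapped. Neither gene passed the filter, with means of 0.00176 and 0.0540 TPM over the 12 libraries, and no fold change is given for them. In the GENCODE annotation MUC20 overlaps MUC20-OT1 on the same strand, MUC5B overlaps the antisense gene MUC5B-AS1, and MUC1 overlaps another coding gene on its own strand. Whether strand was used in counting, and how reads matching several places were assigned, is not given in the sources used here, so reads of overlapping genes and of the repeats that mucins share cannot be told apart.

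**Figure D2:**
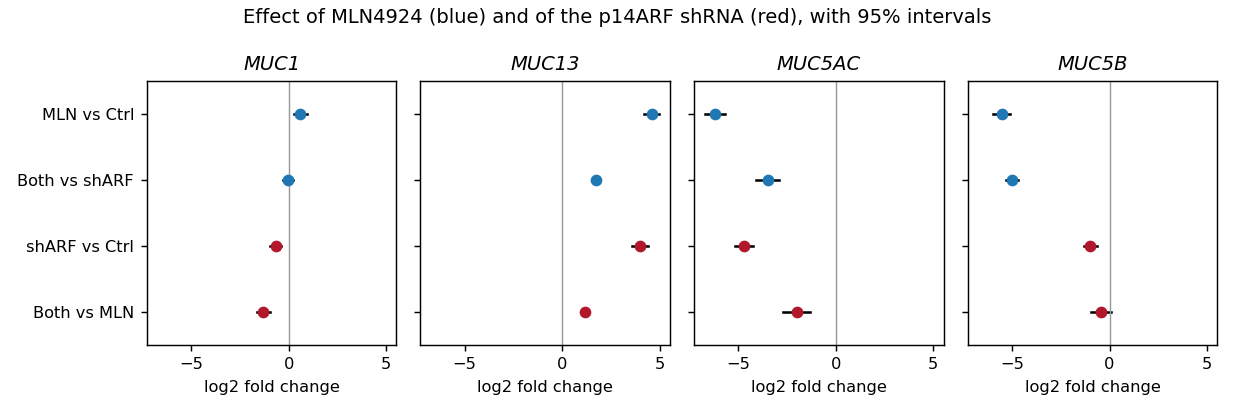
Log2 fold change with its 95% interval (horizontal axis) for the 4 tested mucins. The effect of MLN4924 in PC3 and in PC3-shp14ARF cells is in blue. The difference of PC3-shp14ARF from PC3 cells without and with MLN4924 is in red. MUC5AC and MUC5B lie left of 0 and MUC13 right of 0 in each comparison, the interval of MUC5B in Both vs MLN reaches across 0, and MUC1 in Both vs shARF lies at −0.029.

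Whether the drug acted to a different extent in the depleted cells was tested as the interaction, the log2 fold change of Both vs shARF minus that of MLN vs Ctrl, fitted to the 12 libraries. It passed the threshold for 3 of the 4 tested mucins, beside 28.3% of the genes tested. For MUC13 the effects were 4.59 in PC3 and 1.75 in PC3-shp14ARF cells, and their difference was −2.84 (SE 0.17, adjusted p = 4.29e-07). For MUC5AC the effects were −6.20 and −3.51, with a difference of 2.69 (SE 0.32, adjusted p = 8.51e-05). In both genes the smaller log2 response went with a level in shARF that had already moved in the direction of the drug. The part of that level was not tested, and for MUC5AC the levels in Both lay near the pseudocount. In TPM the mean of MUC13 rose from 2.14 to 53.1 in PC3 cells and from 35.3 to 119.5 in PC3-shp14ARF cells. On that scale the rise of MUC13 was thus larger in the depleted cells, so the direction of its difference depends on the scale. For MUC1 the effects were 0.60 and −0.029, and the difference was −0.63 (SE 0.17, adjusted p = 0.0182). For MUC5B the effects were −5.54 and −4.99, and the difference of 0.55 had a 95% interval from 0.065 to 1.03 and did not pass after adjustment (adjusted p = 0.0855). It did pass with a pseudocount of 1 (0.74), with median-of-ratios scaling (0.63) and without MLN replicate 5 (0.66).

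Together the 6 mucins summed to 109 ± 12.7 TPM in Ctrl, 64.4 ± 1.84 TPM in MLN, 64.7 ± 1.65 TPM in shARF and 124 ± 10.7 TPM in Both. The sum lay between 62.8 and 133 TPM over the 12 libraries, while its make-up turned over. MUC5AC and MUC5B made up 92.2% ± 0.418 of the sum in Ctrl, 39.1% ± 3.71 in shARF, 2.42% ± 0.445 in MLN and 0.580% ± 0.0213 in Both. The share of MUC13 was 2.0% ± 0.560 in Ctrl, 54.7% ± 3.71 in shARF, 82.5% ± 2.44 in MLN and 96.3% ± 0.0526 in Both. No condition overlapped another in either share. MUC1 made up 5.80% ± 0.265 of the sum in Ctrl and 15% ± 2.09 in MLN. These shares restate the levels above and were not tested.

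**Figure D3:**
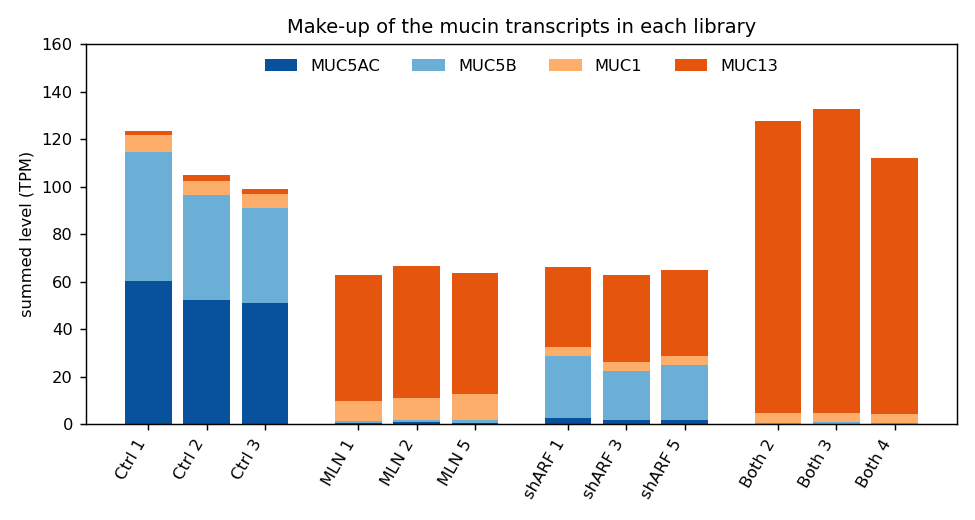
Summed level of MUC5AC, MUC5B, MUC1 and MUC13 in TPM (vertical axis, stacked) in each of the 12 libraries. The gel-forming mucins in blue fill most of the Ctrl bars, about 39.1% of the shARF bars and almost none of the MLN and Both bars, where MUC13 in dark orange dominates.

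The gel-forming mucins of chromosome 11 lie in a cluster with MUC6 and MUC2. The gap between MUC6 and MUC2 is 38.2 kb, that between MUC2 and MUC5AC 47.4 kb and that between MUC5AC and MUC5B 21.9 kb. MUC2, the main intestinal gel-forming mucin, was at 0.699 ± 0.0838 TPM in Ctrl, 0.118 ± 0.0224 TPM in MLN and 0.0748 ± 0.0544 TPM in shARF. MUC6, a gastric gland mucin, was at 0.665 ± 0.226 TPM in Ctrl and 0.0237 ± 0.0273 TPM in MLN, and was listed at 0 in every shARF library. Both genes passed the filter only through their levels in Ctrl, which favors a fall from Ctrl, so their calls lend nothing to those of MUC5AC and MUC5B. Their log2 fold changes in MLN vs Ctrl were −1.87 for MUC2 (adjusted p = 0.000491) and −2.60 for MUC6 (adjusted p = 0.000833), and that of MUC2 in shARF vs Ctrl was −2.24 (adjusted p = 0.00287). In Both vs shARF, which does not use Ctrl, neither was called, with −0.41 for MUC2 (adjusted p = 0.318) and 0.29 for MUC6 (adjusted p = 0.315).

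Within 300 kb on either side of the cluster, 19 other genes were tested. In MLN vs Ctrl 6 of them rose, 8 fell and 5 did not pass, where 61.6% of all genes tested passed. Their log2 fold changes ran from −2.23 (TSPAN4) to 1.79 (PIDD1), with a median of −0.20 beside 0.052 for all genes tested. The nearest tested neighbors were AP2A2 on the side of MUC6, at −1.17 (adjusted p = 2.32e-05), and TOLLIP on the side of MUC5B, at 0.079 (adjusted p = 0.494). In shARF vs Ctrl 2 of the 19 rose, 3 fell and 14 did not pass, where 41.4% of all genes tested passed. The log2 fold changes of the 19 lay between −1.30 (CEND1) and 0.46 (PIDD1). The log2 fold changes of MUC5AC and MUC5B in MLN vs Ctrl thus lay below those of every flanking gene tested, and that of MUC5AC did so in shARF vs Ctrl. The value of −0.98 for MUC5B in shARF vs Ctrl lay above that of CEND1 only. CEND1 was low, at 0.497 TPM in Ctrl and 0.158 TPM in shARF, and was not called (limma adjusted p = 0.167). The next lowest flanking gene was TSPAN4, at −0.88 (adjusted p = 0.0037).

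**Figure D4:**
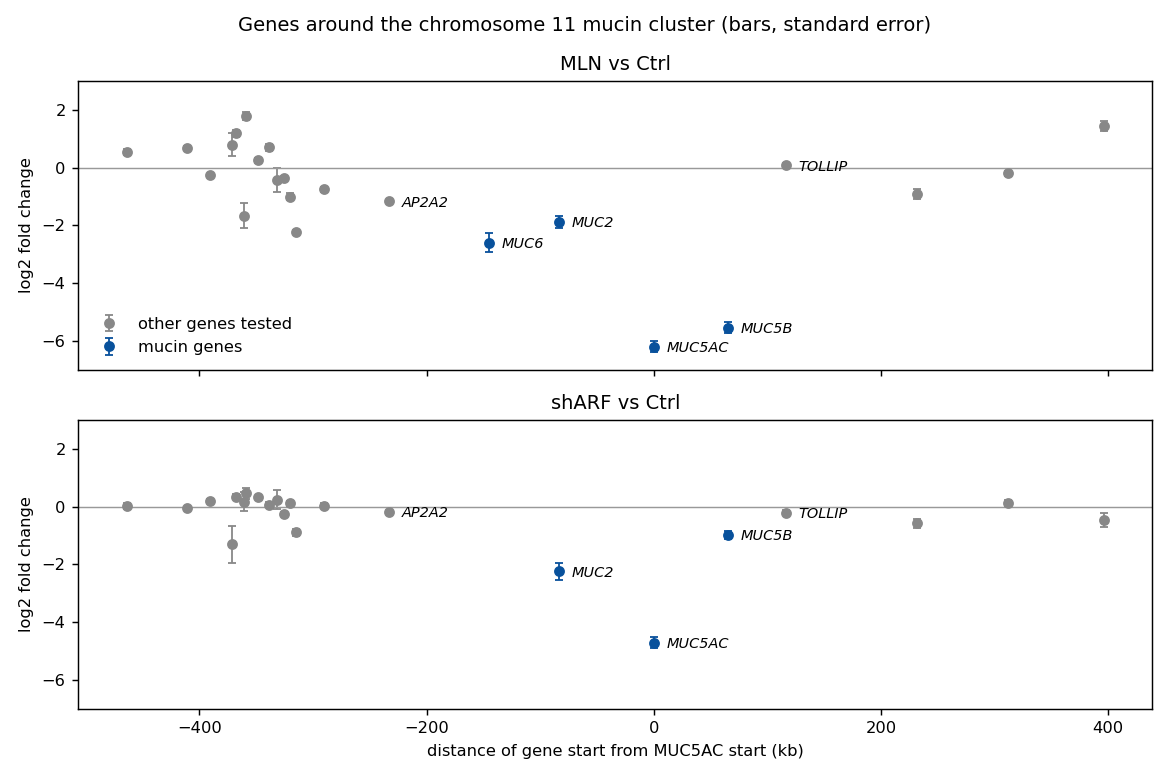
Log2 fold change with its standard error (vertical axis) of genes around the chromosome 11 mucin cluster against the distance of each gene's start from that of MUC5AC in kb, in MLN vs Ctrl (upper) and shARF vs Ctrl (lower). Mucin genes are blue and the 19 flanking genes tested are grey; MUC6 is not drawn in the lower panel because it was listed at 0 in every shARF library.

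Of a list of 16 other mucin genes, 15 were in the table and 8 passed the filter. In MLN vs Ctrl 2 of the 8 rose, 5 fell and 1 did not pass, where 61.6% of all genes tested passed. These counts are a description, since MUC2 and MUC6 passed the filter only through Ctrl, and MUC7 and MUC19 only through the conditions with the drug. MUC7, a small secreted salivary mucin, and MUC19, a gel-forming mucin, were the ones called higher. MUC7 had 0 in each library without the drug, was between 1.24 and 2.10 TPM in MLN and was between 0.803 and 1.47 TPM in Both. MUC19 was likewise listed at 0 without the drug, and was at 0.207 ± 0.0610 TPM in MLN and 0.229 ± 0.0272 TPM in Both. Both stayed far below the Ctrl levels of MUC5AC and MUC5B in TPM. The transmembrane mucin MUC15 fell from 1.70 ± 0.204 to 0.445 ± 0.116 TPM (log2 fold change −1.74, adjusted p = 0.000925), against the direction of MUC13. OVGP1, the oviduct mucin, fell from 2.20 ± 0.377 to 0.661 ± 0.0389 TPM (log2 fold change −1.59, adjusted p = 0.000486), and CD164, the sialomucin endolyn and by far the most abundant of this list, fell from 148 ± 1.78 to 121 ± 4.12 TPM (log2 fold change −0.30, adjusted p = 0.00143). In shARF vs Ctrl 1 of the 8 rose (CD164, log2 fold change 0.49, adjusted p = 0.000229) and 3 fell, namely MUC2, MUC6 and MUC15. Of all genes tested, 41.4% passed in this comparison.

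A list of secretory-cell factors moved with the gel-forming mucins in part. It held proteins made or secreted with mucins, but also transcription factors and other secreted proteins. Of its 13 tested genes, 2 rose and 9 fell in MLN vs Ctrl, where 61.6% of all genes tested passed. The median log2 fold change of the 13 was −1.14, beside 0.052 for all genes tested. FCGBP, a secreted protein bound to gel-forming mucins in mucus, fell from 239.9 ± 20.9 TPM in Ctrl to 1.60 ± 0.106 TPM in MLN (log2 fold change −7.14, SE 0.083, adjusted p = 8.78e-07). AGR2, a disulfide isomerase of the endoplasmic reticulum needed for gel-forming mucin production, fell from 758 ± 16.6 to 28.3 ± 5.90 TPM (log2 fold change −4.76, SE 0.14, adjusted p = 5.19e-06). TFF2, a trefoil peptide secreted with mucins, fell from 81.0 ± 2.12 to 6.65 ± 2.09 TPM (log2 fold change −3.63, SE 0.23, adjusted p = 4.66e-05). In PC3-shp14ARF cells the drug lowered the same 3 genes, with log2 fold changes in Both vs shARF of −5.69 for FCGBP, −5.40 for AGR2 and −2.80 for TFF2.

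These genes differed from each other in shARF vs Ctrl, as MUC5AC and MUC5B did. In this comparison 6 of the 13 rose and 5 fell, where 41.4% of all genes tested passed. The median log2 fold change of the 13 was 0.0085, beside 0 for all genes tested. FCGBP fell to 28.5 ± 2.58 TPM (log2 fold change −3.07, adjusted p = 5.28e-05), whereas AGR2 fell by 0.20 on the log2 scale (adjusted p = 0.021) and TFF2 had a log2 difference of 0.0085 (adjusted p = 0.941). FOXA2, a transcription factor of endoderm-derived epithelia, fell from 62.1 ± 4.52 to 12.6 ± 0.856 TPM (log2 fold change −2.29, adjusted p = 6.33e-05). SLPI, a protease inhibitor of mucosal secretions, fell from 801 ± 53.7 to 195.7 ± 8.32 TPM (log2 fold change −2.03, adjusted p = 5.49e-05) but was higher after the drug in both cell types (log2 fold changes 0.40 in MLN vs Ctrl and 1.75 in Both vs shARF). The summed epithelial markers moved as well, from 907 to 1004 TPM in the Ctrl libraries, 439 to 504 TPM in MLN, 1138 to 1280 TPM in shARF and 433 to 450 TPM in Both. The mesenchymal markers VIM, CDH2, COL1A1 and COL1A2 summed to 901 to 977 TPM in Ctrl, 371 to 423 TPM in MLN, 665 to 725 TPM in shARF and 285 to 313 TPM in Both. VIM, with a mean of 815 TPM in Ctrl, dominated this sum. Not every marker moved with its sum. Mean COL1A1 was 7.27 TPM in Ctrl and 18.2 TPM in MLN, and COL1A2 6.73 TPM in Ctrl and 54.5 TPM in shARF. Mean KRT8 was 90.6 TPM in Ctrl and 93.1 TPM in MLN, and KRT19 562 TPM in Ctrl and 535 TPM in shARF. The part of either marker set in the mucin changes was not tested.

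Mucin O-glycosylation starts with GalNAc-transferases, which attach the first sugar to serine or threonine. Of 20 listed, 14 were tested, and 2 rose and 9 fell in MLN vs Ctrl, where 61.6% of all genes tested passed. The median log2 fold change of the 14 was −0.91, beside 0.052 for all genes tested. GALNT10 fell from 20.7 ± 1.86 to 4.48 ± 0.412 TPM (log2 fold change −2.18, adjusted p = 1.86e-05), and GALNT18 had a log2 fold change of −1.67 (adjusted p = 5.19e-05). In shARF vs Ctrl 4 of the 14 rose and 4 fell, where 41.4% of all genes tested passed. GALNT5 was at 2.0 ± 0.119 TPM in Ctrl and 16.4 ± 1.04 TPM in shARF (log2 fold change 2.97, adjusted p = 4.08e-05). It fell with the drug in both cell types (−1.55 and −2.50). GALNT12 was lower in shARF than in Ctrl (log2 fold change −1.38, adjusted p = 0.00086) and GALNT14 was higher (1.36, adjusted p = 0.00367).

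Enzymes that extend and cap the glycans were divided. Of all genes tested, 61.6% passed in MLN vs Ctrl and 41.4% in shARF vs Ctrl. Of 14 enzymes tested, 5 rose and 6 fell in MLN vs Ctrl, and 6 rose and 3 fell in shARF vs Ctrl. GCNT3, which makes the branched core structures typical of secreted mucins, had the largest rise among the named ones, from 0.740 ± 0.115 to 11.6 ± 0.562 TPM in PC3 cells (log2 fold change 3.80, SE 0.13, adjusted p = 8.09e-06). It rose with MUC13 and against MUC5AC and MUC5B, also in shARF vs Ctrl (log2 fold change 1.41, adjusted p = 0.00301) and in Both vs shARF (3.38, adjusted p = 1.06e-05). B3GNT3, which extends core structures, was likewise higher in MLN (log2 fold change 1.51) and in shARF (1.27) than in Ctrl. The sialyltransferases ST3GAL1 and ST6GAL1 fell after the drug, with log2 fold changes in MLN vs Ctrl of −2.80 (adjusted p = 4.34e-06) and −2.77 (adjusted p = 1.18e-05), while ST6GALNAC1, which caps the first sugar with sialic acid, rose (1.19, adjusted p = 0.00111). ST6GALNAC1 also rose in shARF vs Ctrl (log2 fold change 1.99, adjusted p = 0.000597) and fell slightly in Both vs shARF (−0.56, adjusted p = 0.0257).

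A list of shedding and partner genes held proteases that can shed transmembrane mucins, receptors, and other genes, namely MSLN, LGALS3, CTNNB1 and SRC. All 12 genes of this list were tested. Of these, 4 rose and 7 fell in MLN vs Ctrl, where 61.6% of all genes tested passed. In shARF vs Ctrl 2 rose and 6 fell, beside 41.4% of all genes tested. The receptor gene ERBB3 rose from 4.36 ± 0.631 to 10.3 ± 1.07 TPM with the drug in PC3 cells (log2 fold change 1.22, limma adjusted p = 0.000505). Its log2 difference in Both vs shARF was 0.25 (adjusted p = 0.127), and the Both libraries all lay above those of shARF. The difference between these effects of ERBB3 was −0.97 (adjusted p = 0.00258). MUC1 had −0.029 in Both vs shARF, with overlapping libraries. The sheddases moved in different directions. ADAM10 fell in MLN vs Ctrl (log2 fold change −1.21, adjusted p = 1.33e-05) and in Both vs shARF (−0.61, adjusted p = 0.000501). ADAM17, named after its values were seen, was higher in MLN than in Ctrl (log2 fold change 0.96, adjusted p = 9.82e-06) and in Both than in shARF (1.69, adjusted p = 8.72e-06). MMP14 fell in MLN vs Ctrl (log2 fold change −1.04, adjusted p = 0.000323) and in shARF vs Ctrl (−2.44, adjusted p = 6.4e-05), but rose with the drug in the depleted cells (Both vs shARF 0.89, adjusted p = 1.49e-05), and the difference between its drug effects was 1.93 (adjusted p = 4.94e-07). ADAM9 and EGFR fell in shARF vs Ctrl, by 0.71 and 0.59 on the log2 scale. The set of listed genes had been written with earlier results of these data known, so its counts are a description.

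**Figure D5:**
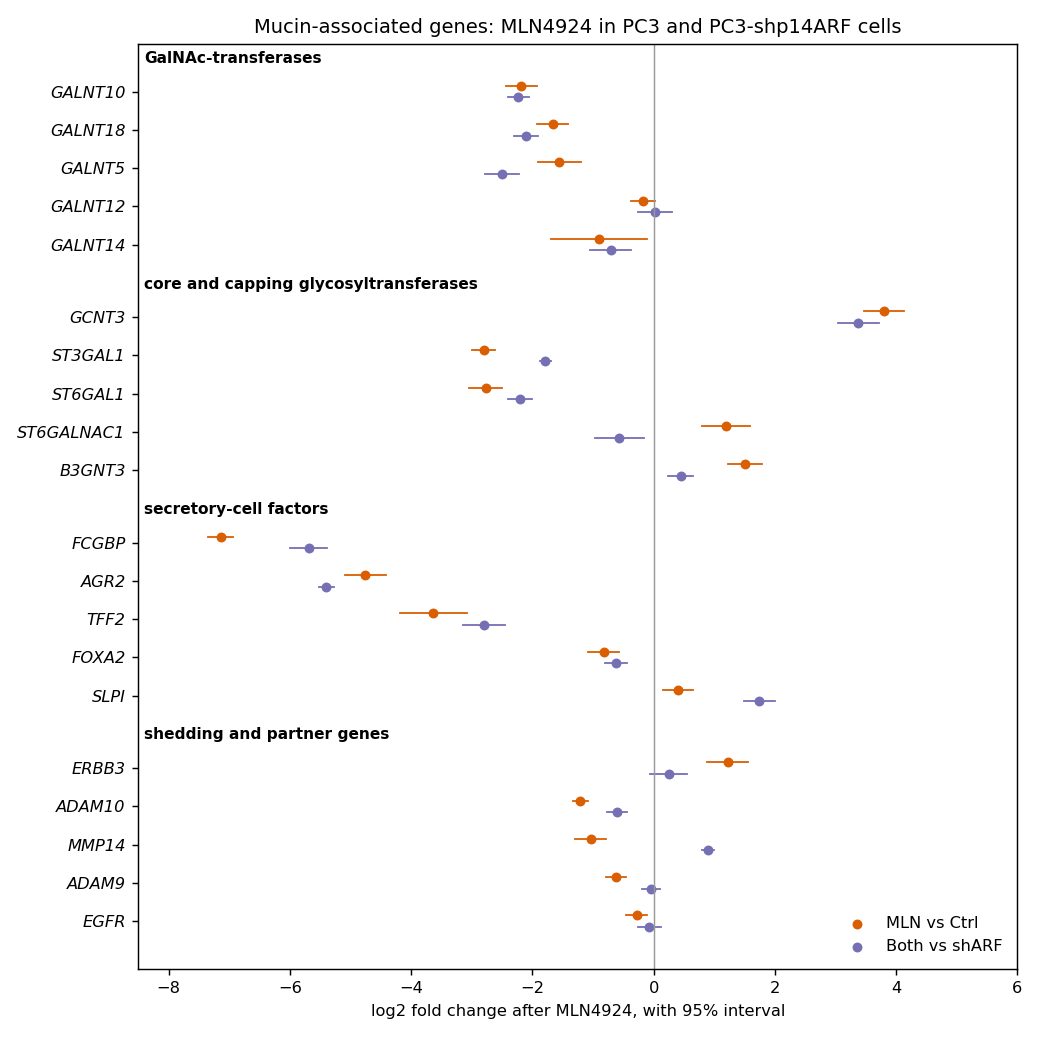
Log2 fold change with its 95% interval (horizontal axis) after MLN4924 in PC3 cells (orange, MLN vs Ctrl) and PC3-shp14ARF cells (purple, Both vs shARF) for the genes named from the lists of GalNAc-transferases, core and capping glycosyltransferases, secretory-cell factors, and shedding and partner genes. FCGBP, AGR2 and TFF2 lie furthest to the left and GCNT3 furthest to the right in both cell types. ADAM17, named in the text after its values were seen, is not drawn.

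The genes whose log2(TPM + 0.1) followed each mucin most closely over the 12 libraries were found among 14662 genes that averaged 1 TPM or more. These correlations span 4 conditions of 3 libraries and rest mostly on the differences between conditions. MUC5B was followed by HAS3, a hyaluronan synthase (Pearson r = 0.998), TSPEAR (0.997) and PPP3CB (0.997). HAS3 fell in the same order as MUC5B, from 1609 ± 90.7 TPM in Ctrl through 767 ± 1.97 TPM in shARF and 77.1 ± 6.87 TPM in MLN to 57.9 ± 1.75 TPM in Both. MUC5AC was followed by SUMF2 (0.994), TNS3 (0.994) and TMEM132A (0.993), and MUC13 by SOD1 (0.992), VDAC2 (0.990) and EXO1 (0.988). SOD1, a cytosolic superoxide dismutase, ranged only from 312 ± 17.1 TPM in Ctrl to 513 ± 22.3 TPM in Both, so likeness of pattern does not mean likeness of size. MUC1 was followed by SLC44A2, a choline transporter (0.992), SLC4A8 (0.980) and C11orf95 (0.978). SLC44A2 was highest in MLN, at 82.8 ± 8.24 TPM, followed by Ctrl at 48.4 ± 5.68 TPM, shARF at 30.3 ± 0.741 TPM and Both at 29.0 ± 2.08 TPM.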

How the data were processed

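RNA-seq of PC3 cells was reported for 4 conditions (Ctrl, MLN, shARF and Both) with 3 libraries each, grouped by the sample labels. In CLC Genomics Workbench the authors trimmed and mapped the reads (hg38, Ensembl annotation of GRCh38), and their own tests ran DESeq2 on read counts. The deposited table gives TPM for 43622 genes, and each column sums to 1000000. As TPM are not counts, log2(TPM + 0.1) of the 19932 genes averaging 0.1 TPM or more was tested (limma 3.58.1 under R 4.3.3, lmFit followed by eBayes using a trend), each comparison on its 6 libraries and the interaction on 12, with Benjamini-Hochberg adjustment across them. This scale understates the change of low genes. The fits were tested on simulated data. TPM carry no depth, so the precision of each value beyond the spread of 3 libraries is unknown. The mucins, the gene lists and the rules were chosen with earlier results of these data known. From each list, up to 3 genes with the largest log2 fold change among those called in MLN vs Ctrl and up to 3 in shARF vs Ctrl are named (1 TPM or more on average), of the other mucins any gene tested, and for likeness the 3 genes with the highest Pearson r; genes flanking the chromosome 11 cluster were named after their values were seen. Alternatives were other pseudocounts (1 and 0.01), no filter or one at 1 TPM, median-of-ratios scaling, a joint fit of the 12 libraries, no trend in eBayes, a replicate block, and leaving out each library. Coordinates are from GENCODE release 44, another release than the authors' annotation, and promoter windows from RefSeq. Figures were drawn with matplotlib. Protein, RT-qPCR and viability data were not analysed here. A marker gene of the luminal prostate list is not reported here.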

Additional observations from a re-analysis of the deposited data

Results flagged for a closer look

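The log2 effect of MLN4924 differed between PC3 and PC3-shp14ARF cells for 3 of the mucins, by a limma test of the difference itself on 12 libraries. Of all genes tested, 28.3% passed this test. The difference was −2.84 on the log2 scale for MUC13 (adjusted p = 4.29e-07), 2.69 for MUC5AC (adjusted p = 8.51e-05) and −0.63 for MUC1 (adjusted p = 0.0182). For MUC5AC it was 1.95 with a pseudocount of 1 and 3.60 with 0.01. The MUC1 call was lost with a replicate block (−0.36, limma adjusted p = 0.294). In TPM, MUC13 rose more in PC3-shp14ARF than in PC3 cells, so the direction of its difference depends on the scale. Groups of 3 libraries are too small for a test of single outlying libraries.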

How the results depend on the processing

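The mucins called, and their directions, were the same under other pseudocounts (1 and 0.01), no filter or one at 1 TPM, no trend in eBayes, median-of-ratios scaling, a joint fit of the 12 libraries and each library left out, except for the following. Without the filter MUC16, at no more than 0.00724 TPM in any library, was also called in shARF vs Ctrl (adjusted p = 0.0376, making 5 mucins) and in MLN vs shARF (adjusted p = 0.0419). MUC1 in Both vs shARF, not called in any setting, was −0.029 on the log2 scale, 0.065 with median-of-ratios scaling, and from −0.076 to 0.047 with 1 library left out (0.047 without Both replicate 4). MUC5B was called in Both vs MLN in the joint fit (adjusted p = 0.0442), and its interaction was called under the settings named with it above. Same-numbered libraries did not deviate together (r from −0.046 to 0.022 over 10 pairs). No shared shift was thus detected, but pairing with small shifts would look the same, so whether the numbers pair the libraries is unknown. With a replicate block, which leaves few degrees of freedom, 0 mucins and 0 genes passed in shARF vs Ctrl (limma; 4 mucins and 7757 genes at an unadjusted p below 0.05), with adjusted p of 0.0899 for MUC1 and 0.0607 for the other 3 and unchanged directions. The MUC1 calls in MLN vs Ctrl (0.45, adjusted p = 0.17), in Both vs Ctrl (−0.51, adjusted p = 0.0521) and in the interaction (−0.36, adjusted p = 0.294) were lost with the block, and no other mucin call was. Both vs shARF and Both vs MLN share too few numbers for a block and were not run with it. Median-of-ratios scaling moved the median of all genes by less than 0.1 in each comparison. Depth is unknown, so levels near 0, as for MUC16 and MUC20, cannot be told from absence.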
